A study of Homo sapiens with 6 samples.

Results

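The 9 genes described here, COL4A1, COL4A2, LAMA5, LAMB1, LAMC1, NID1, HSPG2, COL18A1 and SPARC, encode parts of the basement membrane, or a protein that binds it. They were taken by gene name from a table of 58735 genes, and all 9 names were found once. They were chosen by their FPKM values in the comparison of si-circ_0000839 with NC in these same libraries, known from an earlier analysis. Their values between groups are therefore given as a description, without a test. RNA was sequenced from TPC1 cells, a line established from papillary thyroid cancer and grown in DMEM with serum. In 3 libraries hsa_circ_0000839, a circular RNA, had been silenced by transfection for 60 h with the siRNA si-circ_0000839. In the other 3 libraries the cells had received negative-control siRNAs (NC) for the same time. All 6 libraries come from this 1 cell line, the labels name no separate cultures for the replicates, and the spread between libraries may thus be technical.

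The basement membrane is a thin sheet of matrix under epithelia and around vessels. Laminin trimers, each of an alpha, a beta and a gamma chain, polymerise on the cell surface, and collagen IV trimers form a second network that is covalently cross-linked. Nidogen and the heparan sulfate proteoglycan perlecan bind both networks and hold them together. In the thyroid this sheet surrounds each follicle, and carcinoma cells that invade have to cross it.

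The libraries held 18399558 to 19334633 reads, recovered from the deposited values, and 20533 to 21088 genes above 0. The thyroid lineage factor PAX8 stood at 96.3 ± 5.26 FPKM after si-circ_0000839 and 95.8 ± 2.21 FPKM in NC (SD, n = 3 each), where FPKM is a read number scaled to gene length and library size. FOXE1, another thyroid factor, was at 11.6 and 10.9 FPKM, while in all 6 libraries NKX2-1, TSHR and SLC5A5 were at 0 reads. A value for the circular RNA itself is not given here, and its depletion was not checked. With the tested genes cut into 5 equal groups by GC content, the most GC-rich group lay 0.11 (log2) above its mean over the libraries in si-circ_0000839 replicate 1 and 0.08 above it in NC replicate 2, and between -0.07 and -0.01 in the other 4 libraries.

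COL4A1 and COL4A2 encode the chains of the common collagen IV trimer, and the genes lie head to head on chromosome 13. COL4A1 (ENSG00000187498) covers 110148963 to 110307233 on the minus strand of GRCh38, and COL4A2 (ENSG00000134871) covers 110305812 to 110513209 on the plus strand. The spans overlap by 1422 bases, but of the annotated exons of the pair 0 bases are shared. The strand setting of the read counting was not known. COL4A2 shares 81 exon bases with COL4A2-AS1 and 14 with COL4A2-AS2, genes of the other strand at 0.114 and 0.0117 FPKM. In the GENCODE reference transcripts 2 bases separate the first base of COL4A1 from that of COL4A2. The RefSeq starts lie further apart, with 126 bases between them.

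**Figure D1:**
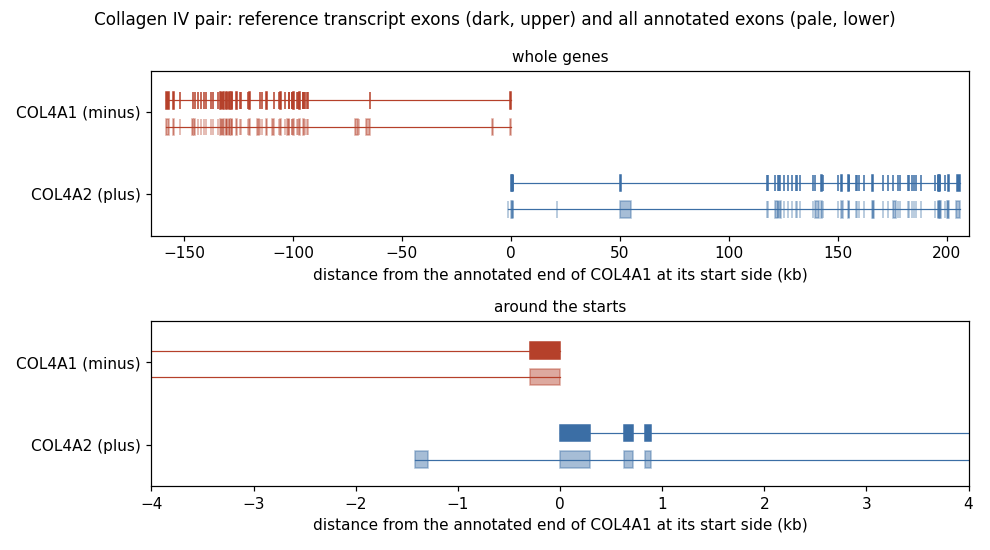
Map of the collagen IV gene pair, with distance in kb from the outer end of COL4A1 on its start side on the horizontal axis. Dark boxes are exons of the reference transcript and pale boxes all annotated exons of the gene. COL4A1 runs to the left and COL4A2 to the right from neighbouring starts, and the pale boxes include long exons that the reference transcripts lack.

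The sequence between the RefSeq starts is shown because it lies before the RefSeq start of both collagen IV genes. The NID1 promoter is shown because the values of NID1 across libraries were the closest to those of COL4A1. HSPG2 was added because its ratio between groups was the next highest after those of COL4A1 and NID1. The sequences are from RefSeq on GRCh38.p14. The shared piece is chr13:110307158-110307283 on the plus strand, read toward COL4A2, and the others are the 250 bases before the start, chr1:236065091-236065340 for NID1 and chr1:21937311-21937560 for HSPG2, both on the minus strand. In GENCODE all but 2 bases of the shared piece lie in the first exons of the pair. The GENCODE start of NID1, 236065162, lies inside the NID1 piece. Capitals mark GC boxes (GGGCGG) and CCAAT boxes (CCAAT) on either strand.
COL4A1-COL4A2: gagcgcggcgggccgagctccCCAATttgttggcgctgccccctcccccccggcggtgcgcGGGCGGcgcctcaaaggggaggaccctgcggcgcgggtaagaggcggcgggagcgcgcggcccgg
NID1: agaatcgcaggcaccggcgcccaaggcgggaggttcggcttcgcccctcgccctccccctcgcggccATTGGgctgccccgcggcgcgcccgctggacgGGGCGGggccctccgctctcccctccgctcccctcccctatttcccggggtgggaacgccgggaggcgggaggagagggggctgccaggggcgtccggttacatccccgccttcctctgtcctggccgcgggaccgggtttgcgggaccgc
HSPG2: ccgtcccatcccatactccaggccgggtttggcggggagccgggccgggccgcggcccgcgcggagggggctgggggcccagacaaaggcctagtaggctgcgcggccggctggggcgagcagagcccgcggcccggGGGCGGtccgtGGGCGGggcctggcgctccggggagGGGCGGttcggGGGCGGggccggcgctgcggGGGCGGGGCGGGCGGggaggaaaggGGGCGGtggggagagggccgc

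The shared collagen IV piece holds 1 CCAAT box and 1 GC box in 126 bases that are 80.2% G or C. Of 35116 RefSeq promoters, 21.1% have a CCAAT box and 34.6% a GC box in the last 126 bases before the start. The NID1 promoter also has 1 of each, the CCAAT box on the opposite strand, and the HSPG2 promoter has 8 GC boxes, overlapping ones counted, and 0 CCAAT boxes. Over the 9 genes, which have 10 promoters in the table because COL18A1 has 2 starts, 9 of 10 have a GC box within 250 bases before the start, against 42.6% of all promoters. A CCAAT box was found in 3 of the 10 (32.0% of all), in COL4A1, COL4A2 and NID1, of which the first 2 share sequence. A TATA box (TATAAA) was found in 1, at the second COL18A1 start (10.7% of all). AP-1 letters (TGANTCA) and E-box letters (CACGTG) were found in 0 of 10, against 6.57% and 6.34% of all promoters. The members' promoters are 59.2% to 88.4% G or C, against a median of 58% over all promoters. The shares over all promoters are not matched for this content, so nothing about the members is read from them.

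COL4A1 stood at 35.5, 29.3 and 31.5 FPKM in si-circ_0000839 replicates 1, 2 and 3, against 22.6, 21.5 and 22.8 FPKM in NC replicates 1, 2 and 3. All 3 libraries with si-circ_0000839 lay above all 3 NC libraries, the lowest of them by 1.29 times over the highest NC library. The group means were 32.1 ± 3.10 and 22.3 ± 0.724 FPKM (SD, n = 3 each), a ratio of 1.44, and the log2 change on the scale of log2(FPKM + 1), which slightly understates it, was 0.50 (SE 0.08). COL4A2 stood at 44.8, 36.7 and 39.7 FPKM after si-circ_0000839, against 33.0, 35.3 and 32.4 FPKM in NC. Here the groups did not overlap either, but the lowest si-circ_0000839 library was only 1.04 times the highest NC library. Its ratio of means was 1.20 (log2 change 0.26, SE 0.08). As these are bulk samples, a change in the number of cells that express a gene and a change in RNA per cell cannot be told apart.

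The balance within the collagen IV pair also differed between the groups. The ratio of COL4A1 to COL4A2 FPKM was 0.791, 0.799 and 0.794 in the si-circ_0000839 libraries, against 0.683, 0.608 and 0.704 in the NC libraries. The si-circ_0000839 libraries lay within 0.01 of each other on this ratio, whereas NC replicate 2, 1 of the libraries that stand apart on GC content, was the lowest of all. The longest annotated transcript is 55.4% G or C for COL4A1 and 62.0% for COL4A2. With a trend on GC content and gene length removed from each library, the log2 change was 0.43 for COL4A1 and 0.16 for COL4A2.

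**Figure D2:**
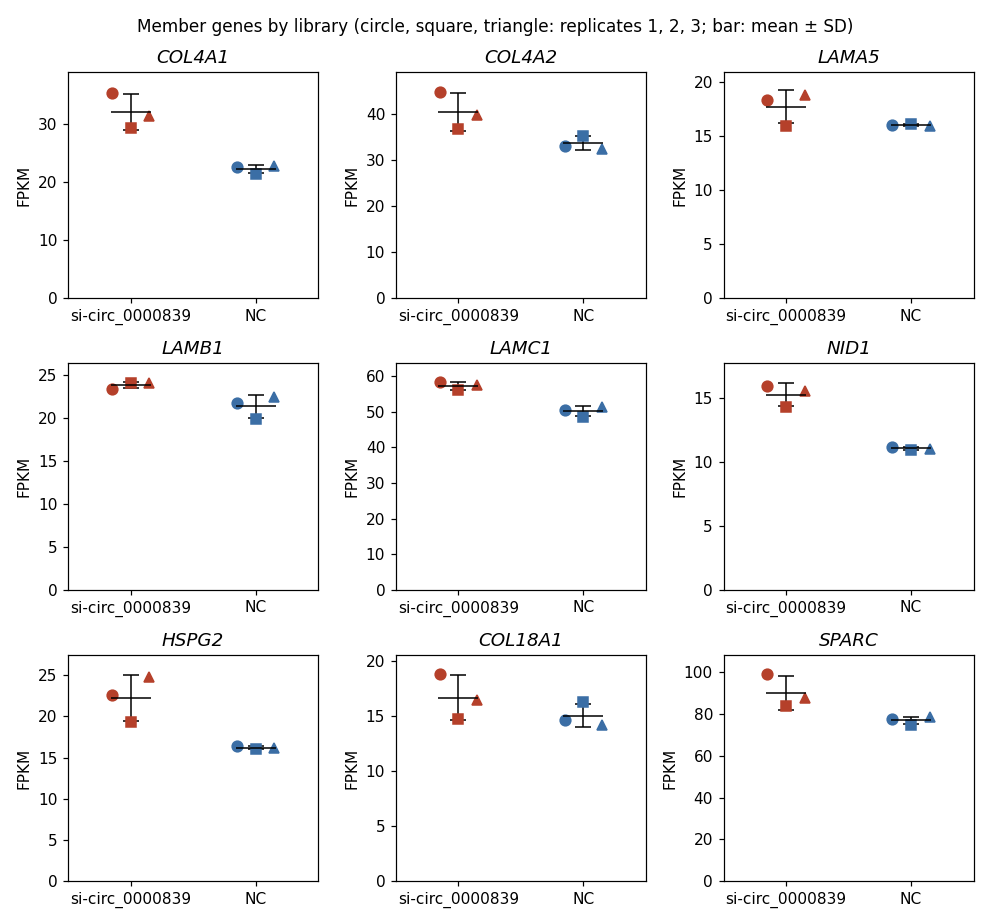
FPKM (vertical axis, from 0) of the 9 genes in the 3 si-circ_0000839 libraries (left, red) and the 3 NC libraries (right, blue), with circle, square and triangle for replicates 1, 2 and 3 and bars for the mean ± SD. The groups are apart in 7 panels and overlap for LAMA5 and COL18A1.

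LAMA5, LAMB1 and LAMC1 encode the chains of a laminin found under many adult epithelia, and they differed less between the groups than COL4A1 did. From COL4A2 they were not clearly apart. With the GC and length trend removed the log2 change was 0.16 for COL4A2 and 0.14 for LAMC1. Without si-circ_0000839 replicate 1 it was 0.18 for COL4A2 and 0.17 for LAMC1. LAMC1, the gamma chain of most laminins, stood at 58.3, 56.0 and 57.6 FPKM after si-circ_0000839, against 50.6, 48.6 and 51.4 FPKM in NC (ratio 1.14, log2 change 0.19, SE 0.06). LAMB1, a beta chain, stood at 23.4, 24.1 and 24.0 FPKM after si-circ_0000839, against 21.7, 19.9 and 22.5 FPKM in NC (ratio 1.12, log2 change 0.15, SE 0.07). Both had groups that did not overlap, and LAMB1 was among the genes that varied least after si-circ_0000839, with a coefficient of variation of 1.49%, against 6.27% in NC. LAMA5, the alpha chain that integrins bind, stood at 18.4, 16.0 and 18.8 FPKM after si-circ_0000839, against 16.0, 16.2 and 16.0 FPKM in NC. The groups of LAMA5 overlapped, because si-circ_0000839 replicate 2 lay within the NC range, and the ratio of 1.10 (log2 change 0.13, SE 0.08) came from replicates 1 and 3. The log2 change of LAMA5 was 0.20 without si-circ_0000839 replicate 2 and 0.08 with the GC and length trend removed. LAMA5 shares 1.71% of its exon bases with ADRM1 on the other strand, a gene at 131 FPKM, so some of its reads could belong to that gene.

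NID1, HSPG2 and COL18A1 encode the linker nidogen-1, the proteoglycan perlecan and collagen XVIII, whose end piece is released as endostatin. NID1 stood at 16.0, 14.3 and 15.6 FPKM after si-circ_0000839, against 11.2, 10.97 and 11.1 FPKM in NC. The coefficient of variation in NC was 1.05%, and every si-circ_0000839 library lay above them, the lowest by 1.28 times. The ratio of means was 1.38 (log2 change 0.43, SE 0.07), although NID1 rests on the fewest reads of the 9 genes, 1652 to 1718 per library after si-circ_0000839 and 1169 to 1274 in NC. HSPG2 stood at 22.6, 19.3 and 24.8 FPKM after si-circ_0000839, against 16.4, 16.0 and 16.2 FPKM in NC, a ratio of 1.37 (log2 change 0.43, SE 0.09). The groups of HSPG2 were apart, with a spread of 2.76 FPKM (SD) after si-circ_0000839 and 0.177 FPKM in NC. COL18A1 stood at 18.8, 14.7 and 16.5 FPKM after si-circ_0000839, against 14.6, 16.2 and 14.2 FPKM in NC (ratio 1.11, log2 change 0.14, SE 0.09). Its groups overlapped, with si-circ_0000839 replicate 2 below NC replicate 2, and the log2 change was 0.05 without si-circ_0000839 replicate 1 and 0.22 without replicate 2. For COL18A1, 16.4% of its exon bases lie on SLC19A1, a gene of the other strand at 5.54 FPKM.

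SPARC, a secreted protein that binds collagen IV and other collagens, was the most abundant of the 9 genes in FPKM. It stood at 98.9, 83.5 and 87.5 FPKM after si-circ_0000839, against 77.4, 74.8 and 78.3 FPKM in NC, and the groups did not overlap (ratio 1.17, log2 change 0.22, SE 0.08). With the libraries that stand apart on GC content left out, si-circ_0000839 replicate 1 and NC replicate 2, the log2 change of SPARC was 0.13. NID1, COL4A1 and HSPG2 thus had ratios of 1.37 to 1.44, and the other 6 genes ratios of 1.10 to 1.20.

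All 9 log2 changes were above 0, with a median of 0.22, where 10674 tested genes, those with a mean of at least 1 FPKM, had a median of 0.01 and 51.8% above 0. In 7 of the 9 genes every si-circ_0000839 library lay above every NC library, while 10.6% of all tested genes had this order. The 9 genes were chosen with this comparison known, so nothing is read from these shares.

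Within the si-circ_0000839 group most of the 9 genes had their high and low values in the same libraries. Replicate 1 was the highest of that group for 6 genes and replicate 2 the lowest for 8, with LAMB1 as the exception. The most GC-rich group of tested genes had the same order, at 0.11, -0.07 and -0.01 (log2) in si-circ_0000839 replicates 1, 2 and 3. The mean deviation of the 9 genes from their mean over the 6 libraries was 0.22, 0.03 and 0.16 (log2) in si-circ_0000839 replicates 1, 2 and 3, against -0.13, -0.14 and -0.13 in NC replicates 1, 2 and 3. The NC libraries were thus alike on this measure, and si-circ_0000839 replicate 2 lay nearest to them. Of the 9 genes, 7 had a larger SD after si-circ_0000839 than in NC, and the others were LAMB1 and LAMC1. Such counts were not made over all tested genes, so nothing particular to the members is read from them.

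**Figure D3:**
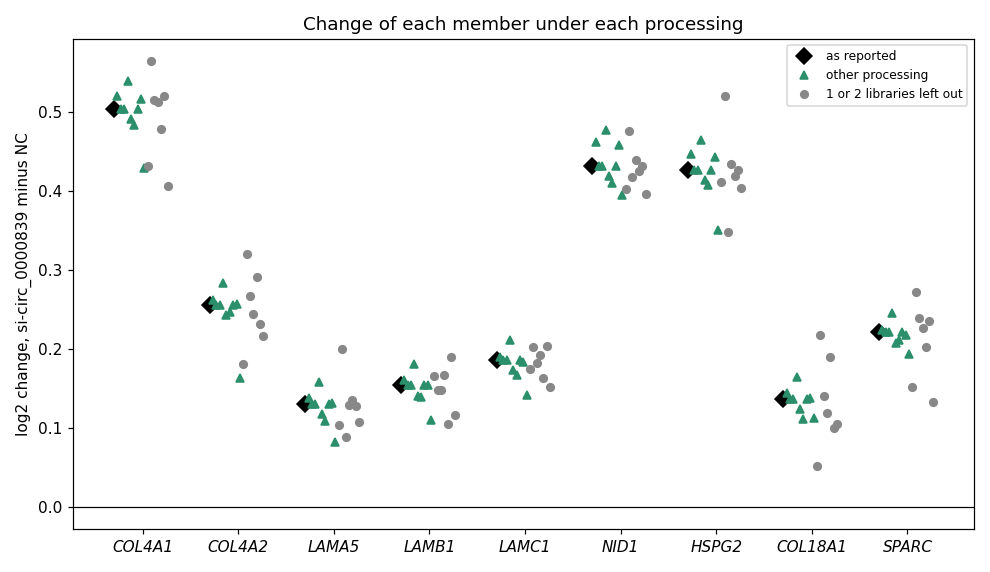
Log2 change (vertical axis, si-circ_0000839 minus NC) of each of the 9 genes as reported (black diamonds), under other processing (green triangles) and with 1 or 2 libraries left out (grey circles). Every point lies above 0, and COL18A1 comes nearest to it, at 0.05 without si-circ_0000839 replicate 1. Points for other filters and for the replicate block equal those reported by construction.

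By FPKM, the order of the genes after si-circ_0000839 was SPARC, LAMC1, COL4A2, COL4A1, LAMB1, HSPG2, LAMA5, COL18A1 and NID1, and it was the same in NC. The ranges over libraries of LAMB1 and HSPG2 overlapped after si-circ_0000839, as did those of LAMA5 with COL18A1 and COL18A1 with NID1. In NC the ranges of COL4A1 and LAMB1 overlapped, as did those of HSPG2 with LAMA5 and LAMA5 with COL18A1. The authors' gene length is the union of all annotated exons, which is 14738 bases for COL4A1 and 19293 bases for COL4A2, against 6616 and 6494 bases in the reference transcript of each gene. Recomputed per kilobase of the reference transcript, COL4A2 averaged 120 and COL4A1 71.5 after si-circ_0000839, against 99.8 and 49.6 in NC. On that scale COL4A2 and SPARC (117 after si-circ_0000839 and 100.3 in NC) had overlapping ranges at the top, and COL4A1 lay above LAMC1 (61.1) after si-circ_0000839 but below it in NC (53.5). NID1 (11.1 in NC), whose deposited length equals its reference transcript, was the lowest on both scales. Ratios between the groups do not depend on gene length.

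Other chains of the same families ranged from far above the members to almost 0. LAMB3, the beta chain of the laminin of hemidesmosomes, was far more abundant than LAMB1. It was at 253 ± 7.76 FPKM after si-circ_0000839 and 229 ± 17.97 FPKM in NC (SD, n = 3 each). LAMA3, the alpha chain of the same laminin, was at 1.88 ± 0.0719 and 1.82 ± 0.149 FPKM, and LAMA5 was 9.43 times as abundant as LAMA3 after si-circ_0000839 and 8.89 times in NC. LAMA1, LAMA2, LAMA4, LAMB4 and LAMC3 stayed at or under 0.192 FPKM in each of the 6 libraries. Of the other collagen IV chains COL4A4 was at 2.34 and 1.92 FPKM and COL4A5 at 1.09 and 0.856 FPKM, and COL4A3 and COL4A6 were lower still at 0.470 and 0.0942 FPKM over all libraries. The other nidogen, NID2, was at 24.1 ± 2.73 FPKM after si-circ_0000839 and 23.6 ± 1.64 FPKM in NC. The ratio of NID1 to NID2 was 0.598, 0.674 and 0.642 after si-circ_0000839, against 0.454, 0.505 and 0.454 in NC, so that the groups did not overlap.

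**Figure D4:**
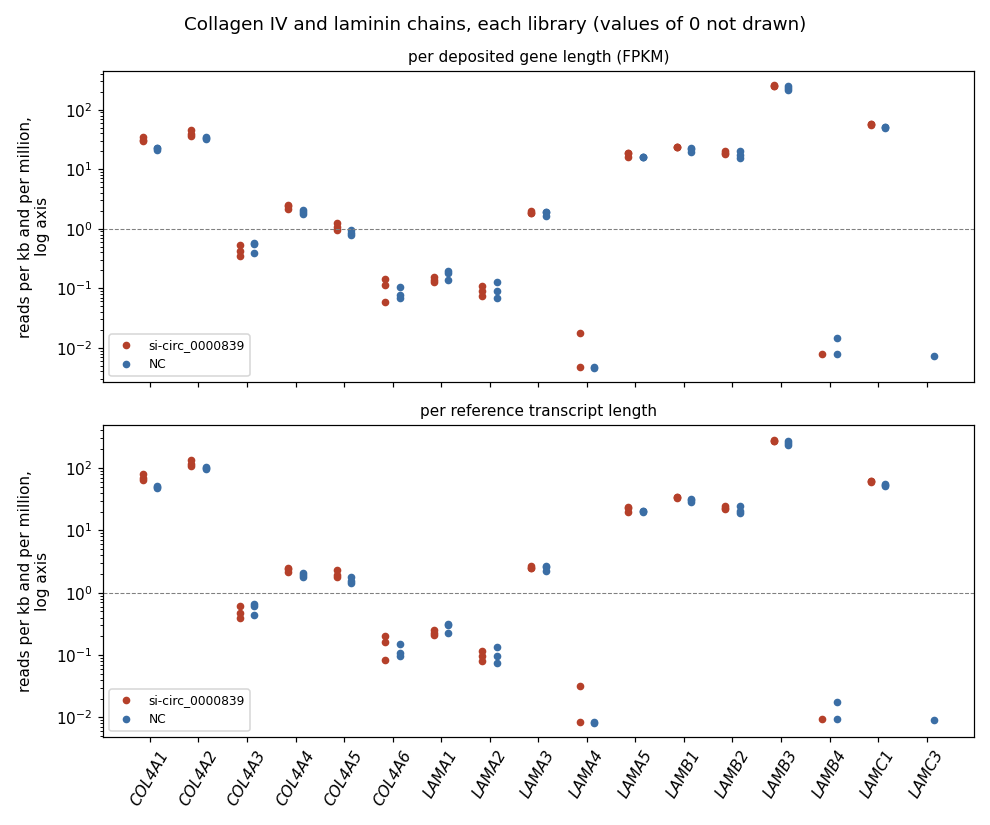
Level of collagen IV and laminin chains in each library (log vertical axis) in si-circ_0000839 (red, left) and NC (blue, right) libraries, per deposited gene length in the upper panel and per reference transcript length in the lower. Values of 0 are not drawn, the dashed line marks 1 FPKM, and LAMB3 stands above 200 in every library.

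Of 70 companion genes in 6 lists, 44 were tested in limma over all genes. These lists, like the members, were chosen with earlier results of these data known. Their counts, shares and p-values are therefore given as a description. At a Benjamini-Hochberg adjusted p under 0.05, 1 rose, 0 fell and 43 did not pass, where 0.131% of all tested genes rose and 0.253% fell. The gene that rose was MMP9, a gelatinase that can cleave collagen IV, at 3.29, 3.07 and 3.14 FPKM after si-circ_0000839, against 0.640, 1.51 and 1.079 FPKM in NC (log2 change 1.03, SE 0.13, adjusted p = 0.0110). At such low values the scale of log2(FPKM + 1) understates the change. The ratio of means was 2.94, and the log2 change with voom was 1.63. MMP9 rests on 135 to 141 reads per library after si-circ_0000839 and 29 to 64 in NC. Its adjusted p was 0.0579 without si-circ_0000839 replicate 1 and 0.262 with no filter on low values, and ranged from 0.00410 to 0.262 over 15 alternatives. MMP9 was 1 of 10 tested genes of basement membrane degradation, and the other 9 did not pass. Over all 44 tested companions 36 log2 changes were above 0, with a median of 0.08, and 16 had every si-circ_0000839 library above every NC library and 0 every one below, against 10.6% and 7.55% of all tested genes.

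In the list of collagen synthesis, secretion and cross-linking 0 of 15 tested genes passed, 4 had an unadjusted p under 0.05 in limma and 2 passed with voom on recovered reads. Of all tested genes 12.6% had such an unadjusted p and 0.787% passed with voom. PXDN, the peroxidase that forms the sulfilimine cross-links of collagen IV, had the smallest p, at 57.0, 51.1 and 51.6 FPKM after si-circ_0000839, against 40.2, 40.3 and 41.9 FPKM in NC (log2 change 0.37, SE 0.07, limma adjusted p = 0.0591). Its adjusted p ranged from 0.0104 to 0.235 over 16 alternatives and was under 0.05 in 5 of them. The most abundant genes of this list, P4HB and PPIB, were at 207 and 133 FPKM after si-circ_0000839, against 202 and 143 FPKM in NC.

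Among other laminin chains LAMB3 did not pass (log2 change 0.14, SE 0.08, limma adjusted p = 0.489, 0.176 to 0.825 over its alternatives). The only tested chain among the other collagen IV genes, COL4A4, did not pass (log2 change 0.19, SE 0.08, limma adjusted p = 0.392, 0.273 to 0.648 over its alternatives). Of the other linkers 0 of 5 tested genes passed, with 1 at an unadjusted p under 0.05 in limma (12.6% of all tested genes) and 0 with voom. Agrin, AGRN, a heparan sulfate proteoglycan that binds laminin, was at 167 ± 18.9 FPKM after si-circ_0000839 and 144 ± 2.95 FPKM in NC, and TINAGL1 at 56.5 and 55.8 FPKM. Of the receptors 0 of 9 tested genes passed, with 1 at an unadjusted p under 0.05 in limma, a share near that of all tested genes (12.6%), and 0 with voom. ITGA6, an alpha chain of laminin-binding integrins, had the smallest p of them, at 9.85 ± 1.11 and 7.87 ± 0.652 FPKM (limma adjusted p = 0.244, 0.0676 to 0.586 over its alternatives). ITGA3 was at 179 and 171 FPKM and SDC4 at 183 and 195 FPKM.

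**Figure D5:**
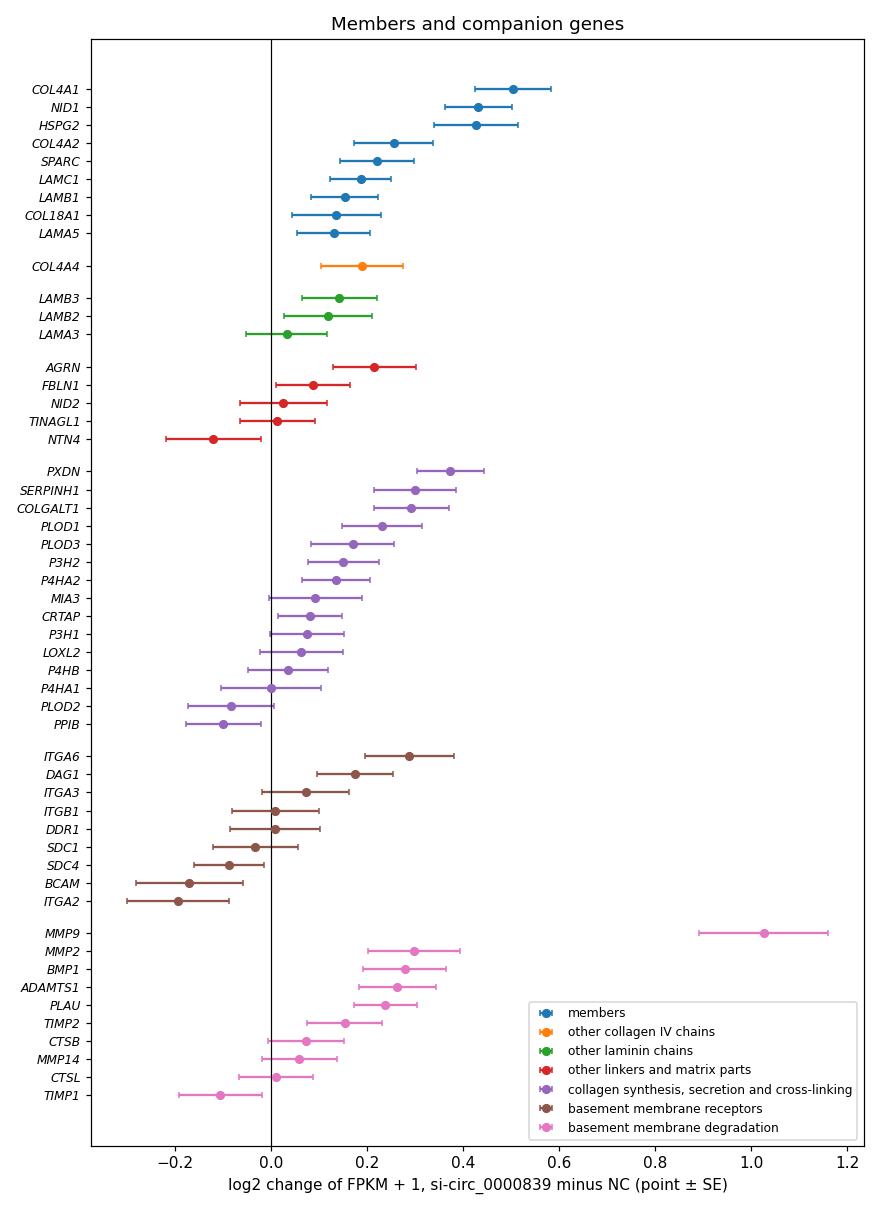
Log2 change of FPKM + 1, si-circ_0000839 minus NC (horizontal axis, point ± SE), of the 9 members (blue, top) and of tested companion genes by list. The members, MMP9 and most of the other tested companions lie right of 0, and COL4A1, NID1 and HSPG2 are the highest of the members.

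The pattern across the 6 libraries closest to that of COL4A1 was that of NID1, by the root mean square difference between centred log2(FPKM + 1) profiles (0.06). HSPG2 differed by 0.10, COL4A2 and SPARC by 0.14, LAMC1 by 0.17 and LAMA5, LAMB1 and COL18A1 by 0.20. Ranked by this difference among protein-coding tested genes, NID1 was 1, HSPG2 22, COL4A2 96, SPARC 111 and LAMC1 360. LAMA5, LAMB1 and COL18A1 ranked 903, 913 and 1032, so many other genes lay closer to COL4A1 than most members did. Among 9657 other protein-coding genes the closest were MYC, COL5A1, ANKRD13B, MARCHF4 and TGFBI, with differences of 0.06 to 0.07. MYC stood at 39.9, 34.3 and 35.04 FPKM after si-circ_0000839, against 26.6, 25.4 and 29.1 FPKM in NC. COL5A1, a fibrillar collagen chain, stood at 5.14, 4.20 and 4.53 FPKM after si-circ_0000839, against 3.37, 3.21 and 3.10 FPKM in NC. All these genes share the same libraries and depth with COL4A1, and the likeness is a description.

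Markers of other cell types, among them types that make basement membrane, were mostly low. LUM was the highest of them, at 15.8 FPKM after si-circ_0000839 and 22.5 FPKM in NC. Of 8 endothelial markers 7 were under 1 FPKM, and their sum was 4.17 to 4.84 FPKM after si-circ_0000839 and 2.997 to 3.56 FPKM in NC, most of it ROBO4. CDH5 had 9 and PECAM1 58 reads over all 6 libraries. Of 8 fibroblast and mural markers 7 were under 1 FPKM, with a sum of 14.6 to 19.2 FPKM after si-circ_0000839 and 20.2 to 25.3 FPKM in NC, most of it LUM, and this sum was lower in every si-circ_0000839 library than in every NC library. Without LUM the sum was 0.763 to 0.956 and 0.506 to 0.672 FPKM, and COL3A1 had 9 reads in all. Of 7 leukocyte markers PTPRC, MS4A1 and CD3E had 0 reads, and their sum was 1.02 to 1.20 and 0.799 to 1.21 FPKM. The endothelial sums, and the fibroblast and mural sums without LUM, were higher in every si-circ_0000839 library than in every NC library, as were 7 of the members. These sums rest mostly on ROBO4 and on COL1A1 (0.565 FPKM after si-circ_0000839 and 0.370 in NC). Other markers of the same lists had lower means after si-circ_0000839, among them PECAM1 (0.0508 and 0.0826 FPKM) and RGS5 (0.0516 and 0.0774 FPKM). The lists thus did not move as a whole, and their part in the members' values was not tested.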

How the data were processed

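RNA sequencing measured 6 libraries of TPC1 cells, 3 per group, with groups and replicate numbers from the sample titles. The authors deposited FPKM values for 58735 genes with gene lengths, per the file headers, and the submitters' processing notes name HISAT2 2.0.5 and featureCounts 1.5.0-p3. The sources used here do not give strand setting, build and scaling total. All 58735 gene IDs had the same coordinates in GENCODE release 29 (GRCh38), and every deposited length equalled the union of annotated exons there. FPKM times length fell on whole multiples of a step in 100% of values above 0 (within 0.01), which gave the reads. The total implied by the step was 0.971 times the recovered reads in si-circ_0000839 replicate 1 and 0.958 times in NC replicate 2. In the other libraries it was 1.00 to 1.02 times, and a smaller total gives a higher FPKM per read. The 6 pairs of libraries within groups differed by more than sampling noise (chi-square per degree of freedom 3.14 to 10.8). For 1 named gene the file held a spreadsheet date, and the symbol of its gene ID was used.

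The test was limma 3.58.1 (R 4.3.3) with a trended prior on log2(FPKM + 1), two-sided, over genes whose mean reached 1 FPKM, group as the only term, and Benjamini-Hochberg adjustment over all 10674 genes, tested on simulated data before use. Folds are ratios of mean FPKM. Members and companion lists were chosen with earlier results of these data known. Named are all members, companions past the threshold or else the 2 most abundant and the one with the smallest p per list, the 5 genes closest to COL4A1, and marker genes; other chains were named to show levels. A few genes of these lists are not reported here. The reference transcript is the longest principal coding transcript of a gene in GENCODE, and levels per reference transcript were added after seeing the data. Alternatives were another pseudocount, other filters and scalings, the replicate number as a block, voom on recovered reads, removal of a GC and length trend, and left-out libraries. Promoters came from the RefSeq table on GRCh38.p14, in which all 9 members matched.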

Additional observations from a re-analysis of the deposited data

How the results depend on the processing

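Each of the 9 members kept a log2 change above 0 in all 16 alternatives. Of these 144 values 143 moved by less than the SD within groups that limma estimated with its trended prior, which is not the observed spread. COL4A1 moved by more, to 0.41, when si-circ_0000839 replicate 1 and NC replicate 2 were both left out. The other filters and the replicate block cannot change a member's log2 change. The values there equal the reported ones by construction and are no check of them. Over all tested genes 41 passed the threshold, 4 with no filter on low values, 68 at a minimum of 5 FPKM, 63 after quantile normalization, 84 with voom, 220 with the GC and length trend removed and 26 without both libraries that stand apart. With 1 library left out the count was 20 to 38. The share of higher calls was 14 of 41 as reported, 32 of 55 after rescaling to TPM, 29 of 63 after quantile normalization, 47 of 84 with voom and 111 of 220 with the trend removed. Among companions 1 passed as reported, 0 with no filter, 4 after rescaling to TPM, 5 after quantile normalization, 4 with voom and 5 with the trend removed, and 0 to 1 with 1 library left out. The further calls included PXDN and COLGALT1 in each of these 4 settings, and PLAU after quantile normalization and with the trend removed, all higher. The cause was not tested. P4HB, at 0.04 as reported, was at -0.0186 with the trend removed and at -0.0177 to 0.0965 with 1 library left out. TINAGL1, at 0.01, was at -0.0012 after quantile normalization, -0.0410 with the trend removed, -0.0089 without both libraries and -0.0452 to 0.0719 with 1 library left out. Neither passed in any of these. Same-numbered replicates did not deviate together, with correlations of -0.15, -0.29 and 0.15, so the numbers were not taken as pairs. With the replicate number as a block 35 genes passed over all, and 1 companion.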
